A study of Mus musculus with 6 samples.

Results

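The immunoglobulin heavy chain locus was followed through 116 probe sets of a gene expression array, in blood stem and progenitor cells with and without induced deletion of Ctcf. The members are every probe set numbered from 17284340 to 17284660, of 41345 probe sets in the value table. The first member is 17284344 and the last is 17284660. The numbering was taken to follow the genome, and this range was selected on the knockout minus WT differences of the same arrays. Those differences are therefore given as a description, with no test of the group of members. The annotation gave 1 gene symbol for 13 members, several for 3 and none for 100. Members 17284364 and 17284368 held identical values on all arrays, as did 17284607 and 17284631, so 114 members are distinct.

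RNA came from LSK cells, the Lin−Sca-1+c-Kithi bone marrow fraction that holds haematopoietic stem cells and multipotent progenitors, of male mice aged 8 weeks. The 3 WT and 3 Ctcf cKO samples are labelled biological replicates, and mice of both groups received 2 mg of tamoxifen daily for 3 days, with sorting 24 hours after the last dose. The knockout is tamoxifen-inducible. CreER mice are named beside it, while the controls' genotype label reads WT, and the labels do not settle if control mice had the recombinase too. Neither the deleted exons nor the promoter of the recombinase is named in the sources used here. Each sample was read on 1 Affymetrix Mouse Gene 2.0 ST array, and values are RMA log2 levels, so a difference of 1 is 2-fold.

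The heavy chain locus encodes the large subunit of antibodies. Its constant region genes, such as Ighm for the mu chain of IgM and Ighg3 for a gamma chain of IgG, lie at one end, and a long array of variable segments lies beyond them. A developing B cell joins one variable segment to a diversity and a joining segment by cutting and deleting the DNA between, so the variable segment carried by the heavy chain mRNA differs from one B cell clone to the next. CTCF is a zinc finger protein that binds insulators and the anchors of chromatin loops, and the heavy chain locus holds many of its sites. Unrearranged constant region transcripts also arise from the locus in early lymphoid cells. Antibody-secreting cells carry rearranged heavy chain mRNA in very large amounts.

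The RefSeq gene table from NCBI, for GRCm38.p6, lists 8 heavy chain constant genes and 183 Ighv variable segments, of which 63 are pseudogenes, on chromosome 12. Genes of the block, each taken at its first member with that symbol alone, ran in the same order there. The order went from Ighg3 and Ighm through Ighv1-47 and Ighv1-53 to Ighv1-54, with Brf1 before the locus and Wdr60 after it. Igh-VS107 was not listed. The table was used for names and order only, because the sources used here name no build for the array annotation. Ighm was the sole symbol of 7 members and Ighg3 of 2, and both also occur among the symbols of the 3 members with several. Of the 7 members with Ighm alone 2, 17284349 and 17284360, lie at the constant region end, while the other 5 lie by number among or beyond the named variable segments. The Ighg3 member 17284614 also lies beyond them by number. A symbol among the variable segments therefore does not place the probe set in the constant region. Near-identical segments share probe sequence, so a value cannot be given to a single segment with certainty.

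Most members had lower levels in the knockout. The difference, Ctcf cKO minus WT, was negative for 101 of 116 members, against 49.8% of all probe sets, and positive for 15. At least 2-fold lower levels were seen for 76 members, 65.5% of them, where the share over the table is 0.682%. The median difference over the members was -1.55, with a range from -6.85 to 2.75, and the median of the whole table was 0.00. All 3 knockout arrays lay below all 3 WT arrays for 56 members, or 48.3%, against 5.53% of the table. The opposite order, with all knockout arrays above all WT arrays, held for 2 members, 17284382 and 17284517, where the table has 6.01%. Because the range was selected on these values, nothing is read from the excess over the table. In a sorted bulk sample, fewer cells of one type and less RNA per cell cannot be told apart.

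**Figure D1:**
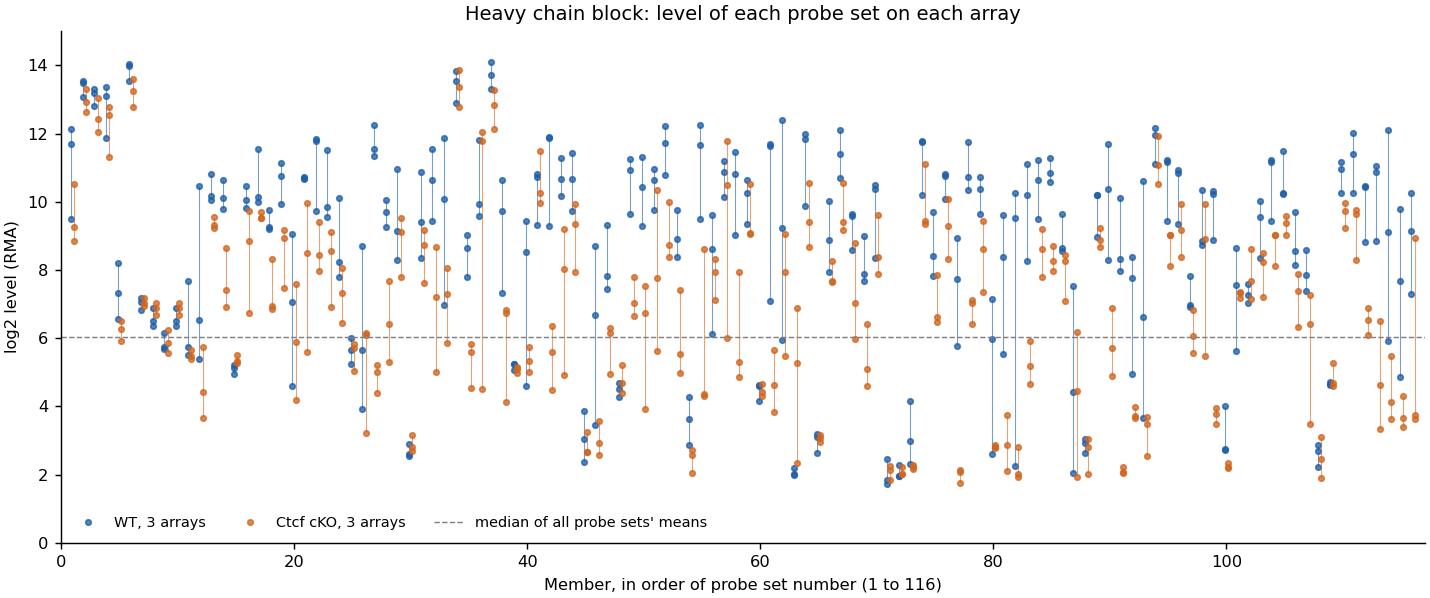
The log2 level of each of the 116 members on each of the 6 arrays, in order of probe set number, with a line from the lowest to the highest array of a group; blue is WT, orange is Ctcf cKO and the dashed line is 6.05, the median of all probe sets' means. Most members above the dashed line have their WT points over their knockout points, and the brightest ones, near 13 to 14, are close together.

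By limma with Benjamini-Hochberg adjustment over all 41345 probe sets, 2 members passed the threshold of 0.05, both lower in the knockout. In the whole set of probe sets 3 passed, or 0.00726%, and the third, 17346952, has no symbol and lies outside the block. Member 17284420, without a symbol and placed by number between the constant region end and Igh-VS107, read 12.26, 11.54 and 11.35 on the WT arrays and 5.01, 4.38 and 5.20 on the knockout arrays. The WT arrays were all far above the table's median level of 6.05 and the knockout arrays all below it, with means of 11.72 ± 0.48 and 4.86 ± 0.43 (SD, n = 3 each). In log2 units the member fell by 6.85 (SE 0.30, limma adjusted p = 0.0046), a 116-fold change and the lowest difference of all 41345 probe sets. Member 17284617, placed beyond Ighv1-54, read 10.23, 8.86 and 10.32 in WT and 3.77, 3.95 and 3.47 in the knockout. Its groups were also far apart, and it fell by 6.07 (SE 0.39, limma adjusted p = 0.0217). Its knockout mean of 3.73 is at the table's 10th percentile of 3.74, though other members had lower knockout means, such as 2.12 for 17284596. Whether the low end of the array's range limited this size was not tested. Without Ctcf cKO replicate 1 neither member passed. Member 17284617 was also lost without WT replicate 1, without Ctcf cKO replicate 2 and without Ctcf cKO replicate 3, and 17284420 passed in each of these.

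The table's most negative differences lay largely in the heavy chain block and the kappa light chain runs. Of the 10 lowest differences 8 were members and 2 lay in the runs of kappa light chain probe sets described further on. Of the 20 lowest, 15 were members and 5 were in the kappa runs. Of the 50 lowest, 33 were members and 14 were in the kappa runs. This is a restatement of the values that chose the block.

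A group of members was above the table's median on every WT array and below the table's median on every knockout array. It had 6 members, with a median difference of -5.76. This definition itself requires a negative difference and groups that do not overlap, so neither is a result. The share of all probe sets that meet it is not given. Besides the 2 called members the group holds 17284596, which read 10.10, 7.96 and 8.32 in WT and 2.09, 2.05 and 2.22 in the knockout. The 3 knockout values lie close together near the bottom of the table, whose lowest value is 1.27, and the difference was -6.67 (SE 0.52). Whether the low end of the array's range limited this difference was not tested. Member 17284512 read 11.69, 11.65 and 7.09 in WT and 4.62, 5.65 and 3.82 in the knockout, a difference of -5.45 (SE 1.24). Here WT replicate 3 was over 4 log2 units below the other WT arrays, yet still above every knockout array.

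Other members with differences of -4 or lower had more spread between arrays. Member 17284557 read 7.73, 8.93 and 5.78 in WT and 2.13, 1.74 and 2.08 in the knockout. Its WT arrays spread widely, while the knockout arrays were all at the low end of the table, and the difference was -5.49 (SE 0.72). Member 17284460 read 11.90, 11.86 and 9.30 against 4.47, 6.34 and 5.59, a difference of -5.55 (SE 0.79), and member 17284652 read 10.87, 11.06 and 8.83 against 6.49, 4.62 and 3.34, a difference of -5.44 (SE 0.90). In both, WT replicate 3 was the lowest WT array and the groups did not overlap. Member 17284498 read 11.66, 12.26 and 9.50 against 4.29, 8.61 and 4.37, where Ctcf cKO replicate 2 stood well above the other knockout arrays (difference -5.38, SE 1.27). Member 17284566 read 8.37, 9.60 and 5.53 against 2.88, 2.10 and 3.75 (difference -4.92, SE 1.00), and member 17284654 read 12.11, 5.90 and 9.10 against 3.64, 4.13 and 5.48 (difference -4.62, SE 1.44). The WT arrays of these last members covered more than 4 log2 units, and the 3 knockout arrays lay below them. In all, 16 members had differences of -4 or lower, 15 of them with groups that did not overlap, 31 had differences between -4 and -2, 29 between -2 and -1, and 25 between -1 and 0.

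**Figure D2:**
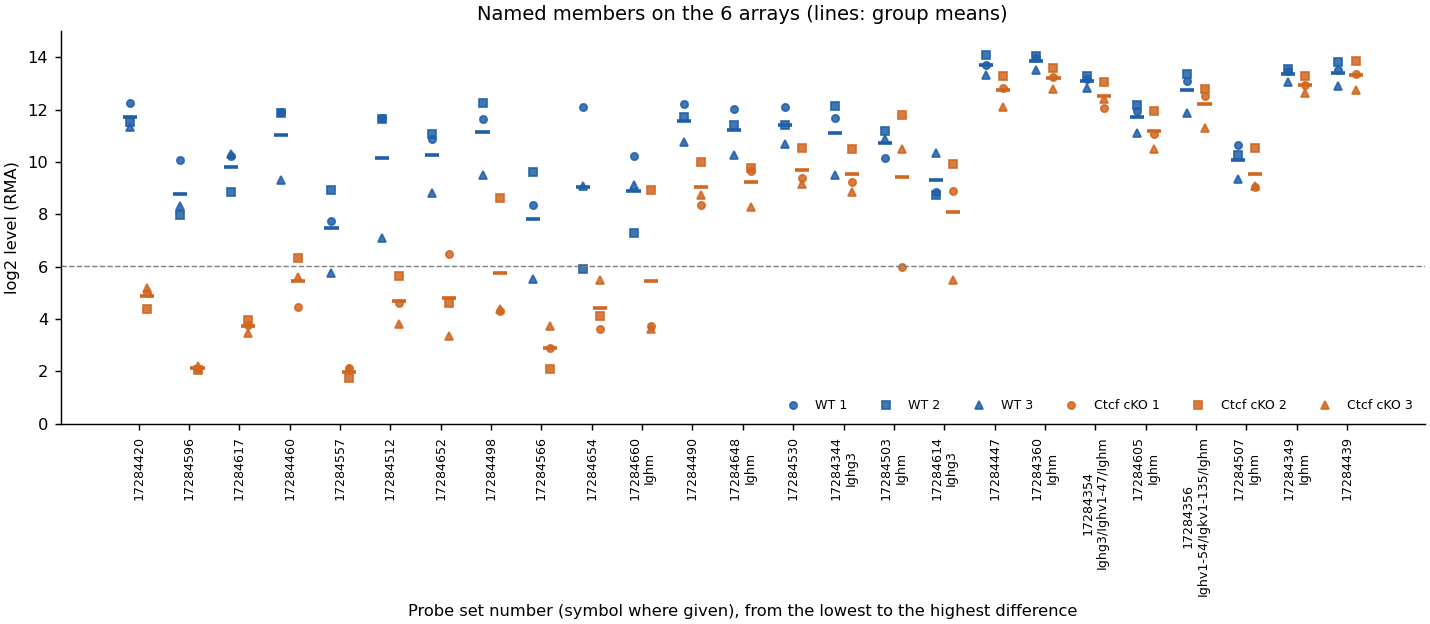
The log2 level of 25 members on each of the 6 arrays, from the most to the least negative difference, with a horizontal line at each group mean and the dashed line at the median of all probe sets' means. At the left the WT and knockout points are separated by several log2 units, as for 17284420 with 11.35 to 12.26 against 4.38 to 5.20, and at the right, where most of the Ighm members lie, they are close or overlap.

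At the constant region end all 6 differences were negative, from -1.57 to -0.40, and 2 were 2-fold or more. Ighm encodes the mu heavy chain, and its brightest probe set, 17284360, read 13.97, 14.04 and 13.54 in WT and 13.26, 13.59 and 12.78 in the knockout. Ctcf cKO replicate 2 lay just above WT replicate 3, so the groups overlapped (difference -0.64, SE 0.24). The second Ighm probe set at the constant region end, 17284349, read 13.48, 13.54 and 13.06 against 12.94, 13.30 and 12.64, again with overlap (difference -0.40, SE 0.21). The Ighg3 probe set 17284344 read 11.70, 12.12 and 9.49 against 9.25, 10.51 and 8.86, and WT replicate 3 was lower than Ctcf cKO replicate 2 (difference -1.57, SE 0.74). Members 17284354, with the symbols Ighg3, Ighv1-47 and Ighm, and 17284356, with Ighv1-54, Ighm and a segment of the kappa light chain locus, differed by -0.59 and -0.55 with overlapping groups. The sixth, 17284358, has no symbol and read 7.34, 8.19 and 6.55 against 5.91, 6.52 and 6.28, the one at this end without overlap (difference -1.12, SE 0.40). Over the 6 probe sets of this end the median difference was -0.62.

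The 5 members with Ighm alone that lie among the variable segments by number behaved differently from one another. Member 17284605 read 11.95, 12.16 and 11.09 in WT and 11.06, 11.93 and 10.51 in the knockout (difference -0.57, SE 0.42), and 17284507 differed by -0.53 (SE 0.49). Both had overlapping groups and differences close to that of 17284360. Member 17284648 read 12.03, 11.41 and 10.27 against 9.64, 9.76 and 8.28 and was the only one of the 7 members with Ighm alone whose groups did not overlap (difference -2.01, SE 0.55). Member 17284633, with the symbols Ighv1-72 and Ighm, read 11.49, 10.27 and 10.24 against 9.39, 9.59 and 9.02, also without overlap (difference -1.33, SE 0.36). Member 17284503 read 10.14, 11.20 and 10.86 against 6.01, 11.78 and 10.48, so 1 low knockout array, Ctcf cKO replicate 1, made its difference of -1.31 (SE 1.37). Without that array its difference was 0.40. Member 17284660, the last of the block, read 10.25, 7.28 and 9.14 against 3.75, 8.94 and 3.63, with Ctcf cKO replicate 2 within the WT range (difference -3.45, SE 1.50). The second Ighg3 member, 17284614, read 8.85, 8.74 and 10.34 against 8.90, 9.93 and 5.49 (difference -1.21, SE 1.11), and its only low array was Ctcf cKO replicate 3, without which the difference was 0.10.

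The brightest members had small differences whether or not they carried a symbol. The 6 members with a WT mean of 12 or more had differences from -0.96 to -0.09, with a median of -0.57. A pair of bright probe sets without a symbol show the ends of this range. Member 17284447 read 13.73, 14.09 and 13.31 in WT and 12.84, 13.29 and 12.12 in the knockout, without overlap (difference -0.96, SE 0.33). Member 17284439 read 13.53, 13.82 and 12.91 against 13.37, 13.86 and 12.76, and the groups interleaved (difference -0.09, SE 0.33). Below this level, 17284490 read 12.21, 11.72 and 10.78 against 8.37, 9.99 and 8.74, without overlap (difference -2.54, SE 0.50). Likewise 17284530 read 12.11, 11.40 and 10.70 against 9.40, 10.55 and 9.17, and its groups were separated only narrowly (difference -1.70, SE 0.46). The highest value of the whole table is 14.26, and whether these probe sets were close to saturation was not tested. The 42 members with a WT mean from 10 to 12 had a median difference of -1.96, the 28 from 8 to 10 a median of -2.02, and the 20 from the table's median to 8 a median of -1.64.

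The 4 members with a single variable segment symbol had negative differences from -3.31 to -0.48. Ighv1-53, on probe set 17284577, read 11.30, 10.85 and 10.57 in WT and 8.27, 8.72 and 7.98 in the knockout. Both groups were tight and did not overlap, and the difference was -2.59 (SE 0.25). It missed the threshold over all probe sets (limma adjusted p = 0.0857), while it passed in a table with 1 probe set per named gene. Igh-VS107, a variable segment symbol, on 17284463, read 11.27, 10.66 and 10.17 against 9.20, 8.04 and 4.93 (difference -3.31, SE 1.01), with Ctcf cKO replicate 3 the lowest. Ighv1-47, on 17284564, read 7.14, 5.98 and 2.60 against 2.81, 2.77 and 2.86, so 2 WT arrays were above the knockout arrays and WT replicate 3 below them (difference -2.43, SE 1.05). Ighv1-54, on 17284582, read 7.53, 2.04 and 4.42 against 4.44, 6.18 and 1.93, with neither group above the other (difference -0.48, SE 1.55). These last 3 segments, and members 17284568, 17284515, 17284445, 17284487, 17284517 and 17284457 described next, were picked after their values were seen.

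In some members the arrays of one group lay far apart. Member 17284568 read 9.53, 10.25 and 2.26 in WT and 2.81, 2.02 and 1.94 in the knockout. WT replicate 3 stood with the knockout arrays, almost 8 log2 units below WT replicate 2. Member 17284515 read 9.24, 12.39 and 5.94 against 9.07, 7.95 and 5.47, highest in WT replicate 2. Member 17284445 read 11.80, 9.58 and 9.93 against 11.78, 12.04 and 4.50, so Ctcf cKO replicates 1 and 2 were as high as any WT array and replicate 3 was far below. Member 17284487 read 10.64, 10.97 and 9.76 against 10.34, 5.61 and 7.75, where Ctcf cKO replicate 1 kept the WT level.

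The few positive differences were mostly small and in dim probe sets. The largest belonged to 17284517, which read 2.00, 2.20 and 2.02 in WT and 5.27, 6.88 and 2.33 in the knockout. Ctcf cKO replicate 2 was the only array above the table's median, and the difference was 2.75 (SE 1.03), the only one of 2-fold or more in this direction. Member 17284457, at 10.81, 10.73 and 9.33 in WT and 10.24, 11.50 and 9.97 in the knockout, was a bright member with no lower level in the knockout (difference 0.28, SE 0.52). The median of the 15 positive differences was 0.19. Of all members 16 were under the table's median on all 6 arrays, and their median difference was -0.06. Low levels such as these may be close to the array's background, and whether that limited the differences seen there was not tested.

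**Figure D3:**
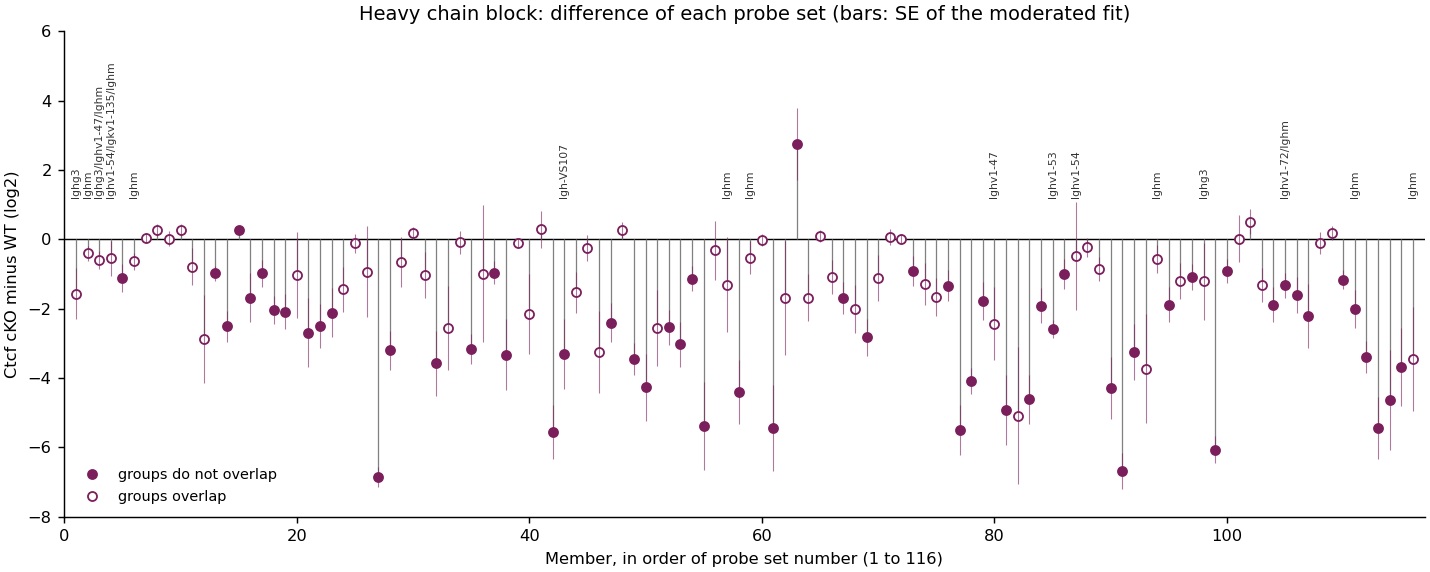
The difference Ctcf cKO minus WT of each member in log2 units, in order of probe set number, with bars of 1 SE from the moderated fit, filled points where the groups do not overlap and symbols above the members that have them. Deep differences, down to -6.85, occur all along the block beyond its first members, next to members near 0.

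Beyond the constant region end, each stretch held both deep and small differences. Split at the named genes, the 37 members from the constant region end to Igh-VS107 had a median of -1.03, the 36 from there to Ighv1-47 a median of -1.67, the 8 from Ighv1-47 to Ighv1-54 a median of -2.51, and the 29 beyond a median of -1.61. Across members, which are not independent because they share arrays and sequence, Spearman's rho of the difference with the order was -0.22, and that of the WT mean with the order was -0.12. The rho of the difference with the WT mean was -0.35, over the same 116 members. The WT mean is a part of the difference, so this last value is partly built in. Members 17284366, 17284364 and 17284362, next to the constant region end, were dim to middling and differed by 0.02, 0.27 and 0.03, while 17284379, a few numbers on, differed by -2.51.

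The limit of the range fell inside a stretch of like values on one side. Just before it, 17284339 differed by -2.43, 17284334 by -2.59 and 17284327 by -0.69, and 17284314, a probe set with the symbol Igh-VS107, had means of 12.16 for WT and 11.09 for the knockout. Just inside it were 17284344 at -1.57 and, at the other end, 17284660 at -3.45. Just after it, 17284662 differed by -0.68, 17284664 by 0.98 and 17284667 by 2.48, the last reading 9.97, 7.06 and 8.18 in WT and 10.80, 10.95 and 10.89 in the knockout, with groups that did not overlap. The nearest genes of other kinds were at about the same level in both groups, with Brf1, a subunit of an RNA polymerase III initiation factor, at 0.07 and Wdr60, a dynein intermediate chain, at -0.09.

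The members did not vary independently within a group. The median residual SD between arrays of a group was 0.83 for the members and 0.19 for the whole table, a measure that the choice of the range did not use directly. With the group means removed, the mean pairwise correlation among the 94 distinct brighter members was 0.46, 85.1% of pairs were positive and the first component held 47.4% of the variance. These are descriptions over 6 arrays, which allow few components, so a large first share is partly built in. The same correlation and share were not computed for other probe sets. A gap of 4 log2 units or more between arrays of one group was seen for 24 members, 20.7% of them, and for 78 probe sets, 0.189%, of the table. Among WT arrays 15 members had such a gap and among knockout arrays 10.

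Array by array, the block's median level was 10.10, 9.66 and 8.56 in WT and 6.91, 7.74 and 6.03 in the knockout. WT replicate 3 was the lowest WT array and Ctcf cKO replicate 3 the lowest knockout array, and the lowest WT array stood above the highest knockout array. Of the 96 members whose brighter group mean was above the table's median, WT replicate 3 was the lowest of its group for 69 and Ctcf cKO replicate 3 for 70, while Ctcf cKO replicate 2 was the highest of its group for 73 and WT replicate 1 for 54. Levels of 10 or more were reached by 60, 55 and 28 members on the WT arrays and by 10, 16 and 8 on the knockout arrays. Fewer members were under 4 in WT, at 8, 13 and 15, than in the knockout, at 23, 19 and 28. Medians of the whole table were between 5.99 and 6.07 on all arrays, and correlations between arrays over all probe sets were 0.971 to 0.979 within groups and 0.962 to 0.983 across groups.

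**Figure D4:**
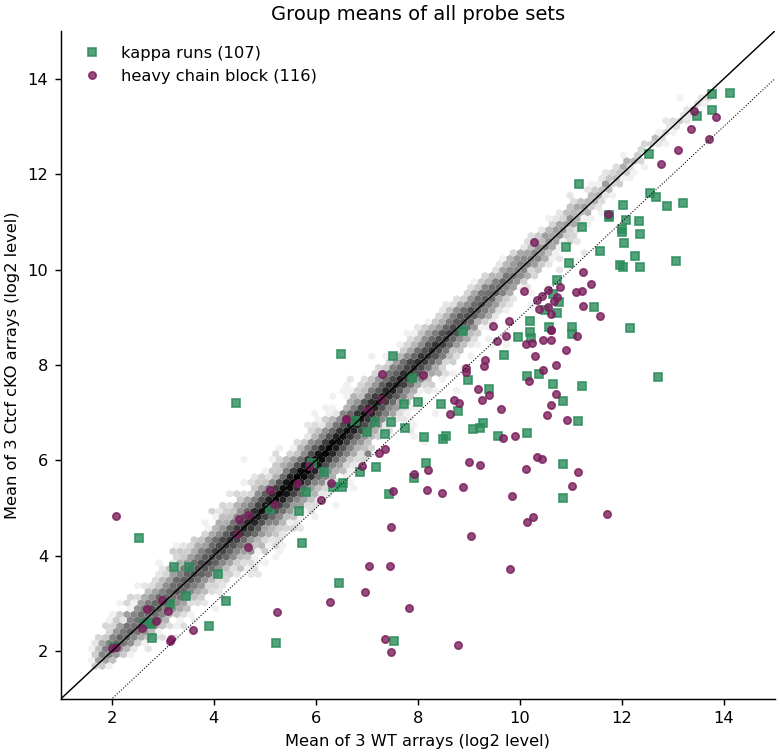
The mean of the 3 Ctcf cKO arrays against the mean of the 3 WT arrays in log2 units for all 41345 probe sets (grey density), the 107 probe sets of the kappa runs (green squares) and the 116 heavy chain members (purple circles); the solid line is equality and the dotted line 2-fold lower. Heavy chain and kappa points fall together below the dotted line, 76 of 116 and 64 of 107 at or under it, while the grey density follows the solid line.

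Light chain loci, whose products pair with the heavy chain, were the most like comparison, and T cell receptor loci, which are rearranged by the same recombinase in T cells, the contrast. The runs of probe set numbers between named kappa segments, set after values were seen, held 107 probe sets. Of these 97 had negative differences and 64 were at least 2-fold lower, with a median of -1.22. Knockout arrays all below the WT arrays were seen for 26, or 24.3%, against 48.3% of the heavy chain block and 5.53% of the table. The 16 probe sets named as single kappa segments had a median of -1.56, and Iglv1 of the lambda locus differed by -0.48. In the T cell receptor alpha run 0 of 163 probe sets were 2-fold lower, and the median was -0.07. Its median level was 5.17 in WT and 5.20 in the knockout, under the table's median of 6.05. The kappa runs had median levels of 9.58 and 7.50. The alpha run therefore contrasts with the kappa runs in level too, and whether its low level limited a fall or a wide gap was not tested. Whether the heavy chain block differs from the kappa runs was not tested. On the 6 arrays the kappa runs had medians of 11.12, 9.48 and 9.19 in WT and 8.51, 7.78 and 6.36 in the knockout, again without overlap. Gaps of 4 or more between arrays of one group were seen for 41 of the 107 kappa probe sets and for 0 of the 163 of the alpha run.

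Within each group, the summed level of antibody-secreting cell markers had the array order of the block, with overlap between the groups. The sum weighs the brightest genes most, and the sums of Ctcf cKO replicates 1 and 2 were nearly equal. Most single genes had other orders. In Mzb1, Pou2af1 and Slamf7, for example, WT replicate 2 lay above WT replicate 1, so the order of the sum is not that of the genes. Of the list's 15 genes 14 had negative differences, with a median of -0.62, 1 had groups that did not overlap, and 0 were under the table's median on all arrays. By limma 0 of the 15 passed. Their summed level, as log2, was 13.80, 13.69 and 12.79 in WT and 12.97, 12.99 and 12.10 in the knockout, with replicate 3 the lowest in both groups, as in the block, but WT replicate 3 was below Ctcf cKO replicates 1 and 2. Jchain, which joins IgM into polymers, read 12.94, 12.72 and 11.84 against 12.04, 11.97 and 10.81, and Xbp1, a transcription factor of secretory cells, read 10.66, 10.69 and 9.94 against 10.14, 10.02 and 9.61. In both genes WT replicate 3 was below at least one knockout array, and Ctcf cKO replicate 1 was above replicate 2, unlike in the block. Tnfrsf17, the survival receptor BCMA of plasma cells, differed by -1.53, and WT replicate 3 at 7.80 lay below Ctcf cKO replicate 1 at 8.21. Edem2, a factor of protein quality control in the endoplasmic reticulum, differed by -0.10. The gene without overlap was Sdc1, the plasma cell surface proteoglycan CD138, at 7.44, 7.59 and 7.34 against 7.20, 7.19 and 6.64. The part of such cells in the values of the block was not tested, and which lineage antigens the sort removed is not named in the labels.

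**Figure D5:**
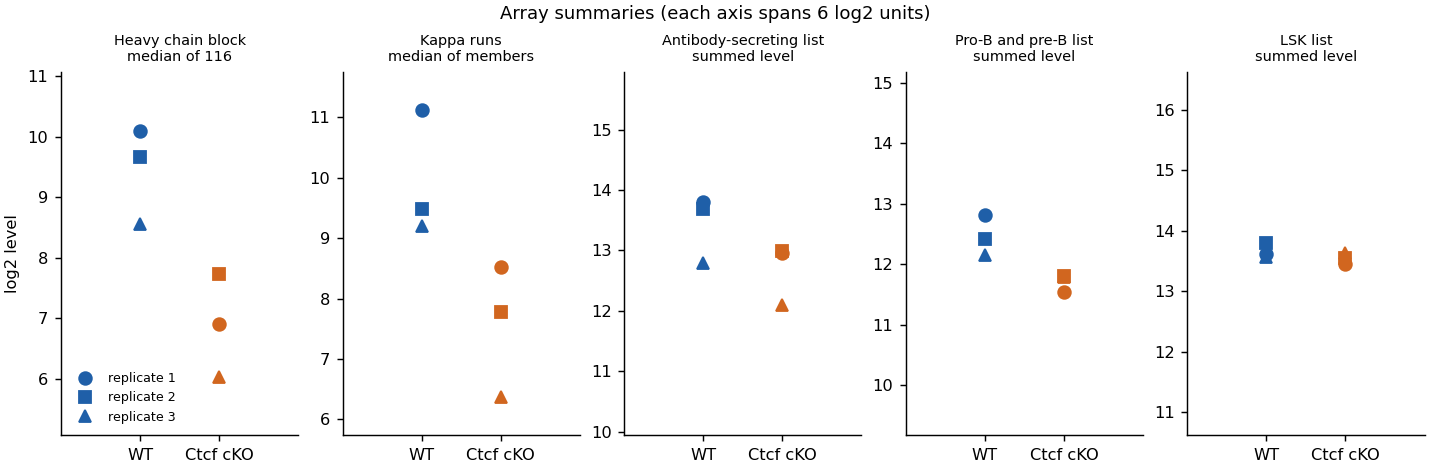
Log2 level on each of the 6 arrays of the block's median member, the kappa runs' median, and the summed levels of the antibody-secreting, pro-B and pre-B, and LSK marker lists, with each axis spanning 6 log2 units and the symbol giving the replicate number. The block and kappa medians separate the groups, the antibody-secreting sum has replicate 3 lowest in both groups, and the LSK sums lie between 13.44 and 13.80.

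The sums of early B lineage genes separated the groups, as the block's medians did. The pro-B and pre-B list had 12 of 14 negative differences and a median of -0.30. Knockout arrays lay all below the WT arrays for 5 of the 14 genes, where 5.53% of the table had this. Its summed level was 12.81, 12.42 and 12.15 in WT and 11.53, 11.80 and 11.78 in the knockout. WT replicate 3 was again the lowest WT array, while Ctcf cKO replicate 1 was the lowest knockout array. Dntt, the enzyme that adds bases at the joins of heavy chain segments, read 10.63, 11.05 and 10.77 against 9.82, 10.45 and 10.46, and Il7r, the interleukin-7 receptor chain, read 9.93, 10.27 and 9.49 against 7.52, 7.60 and 7.74. Both had knockout arrays below all WT arrays, and neither passed over all probe sets (limma adjusted p = 0.814 for Dntt and 0.0634 for Il7r). The mature B cell list had 12 of 13 negative differences and a median of -0.35, with summed levels of 11.98, 11.72 and 11.31 in WT and 11.41, 11.53 and 11.21 in the knockout. These sums have the array order of the antibody-secreting sum, again with WT replicate 3 below Ctcf cKO replicates 1 and 2. Its brightest genes in WT were Cd79b, Cd37 and Cd79a, with differences of -0.09, -0.05 and -1.25, and Erg, a bright member of the pro-B and pre-B list and also a stem cell factor, differed by 0.02.

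Lists of other cell types had medians near 0. The T cell list had a median of -0.02, and 7 of its 12 genes were under the table's median on all arrays. The LSK list, in which Cd34 differed by -0.02, Flt3 by -0.42 and Meis1 by -0.04, had a median of -0.04 and a summed level between 13.57 and 13.80 in WT and between 13.44 and 13.63 in the knockout. In the T cell list Lat differed by 0.12, Cd5 by -0.01 and Bcl11b by -0.39. Granulocyte and monocyte genes had a median of -0.02 but ran in both directions, 8 negative and 7 positive. Ly6c2 differed by -0.02, Elane by 1.21 and Ctsg by 1.15, while the granule genes Ngp, Camp and Ltf differed by -2.44, -1.46 and -1.04. The median was -0.06 for erythroid genes, with Car2 at 0.33, Car1 at 0.56 and Tfrc at -0.18. In each of the 7 cell type lists and the 6 pathway lists 0 genes passed by limma over all probe sets, where 2448 probe sets had an unadjusted p under 0.05.

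Genes whose products act on the locus were also listed. Ctcf itself read 8.35, 8.59 and 8.73 in WT and 7.58, 7.78 and 7.86 in the knockout. The groups did not overlap, with a difference of -0.82 (SE 0.14), and the exact two-sided permutation p of 0.1 is the smallest that 3 arrays against 3 can give (limma adjusted p = 0.418). The loop and insulator list, cohesin subunits and their loaders included, had 9 of 12 positive differences and a median of 0.13. The rearrangement and joining list had 5 negative and 7 positive differences and a median of 0.05, with Rag2, a subunit of the recombinase, at -1.45 and groups that did not overlap. Transcription factors of the heavy chain promoter and enhancers had 14 of 16 negative differences and a median of -0.18, from -0.95 for Ebf1, a B lineage specification factor, to 0.27 for E2f1, a cell cycle factor. Ebf1 read 7.76, 5.76 and 5.90 in WT and 5.50, 5.69 and 5.37 in the knockout. Its groups did not overlap, but only narrowly, and WT replicate 1 was its only high array. Pou2af1, the coactivator of octamer factors at immunoglobulin promoters, differed by -0.89 with overlapping groups.

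Partners of the heavy chain protein were mixed. The receptor list had 6 of 9 negative differences and a median of -0.09. Cd79a, a signalling chain of the B cell receptor, read 9.64, 8.93 and 7.74 in WT and 7.85, 8.12 and 6.60 in the knockout, while Cd79b, its partner, differed by -0.09. Igll1, a part of the surrogate light chain, read 11.01, 6.09 and 7.94 against 7.65, 6.51 and 6.26, and its difference of -1.54 came from 1 high array, WT replicate 1. The class switching list had a median of 0.22 and the assembly and secretion list, mostly chaperones of the endoplasmic reticulum, a median of -0.02, with 6 of 12 genes negative.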

How the data were processed

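The authors deposited log2 probe set levels and, per the submitters' processing notes, used RMA and oligo (versions not stated). RMA subtracts background, equalises the distributions of the arrays and summarises probes, and differences of dim and very bright probe sets may be compressed. Members and gene lists were chosen with earlier results of these data known. Levels were used as deposited, with no filter. In R 4.3.3, limma 3.58.1 (lmFit and eBayes, defaults) was fitted to all 41345 probe sets on 6 arrays with group as the only term, and p-values were adjusted by Benjamini-Hochberg over all of them. SEs come from that fit and SDs from 3 arrays. The fit was tested on simulated data. Levels of different probe sets are not on one abundance scale. Named members were those past the threshold, those with constant region symbols, the 10 brightest in WT, the 10 largest non-overlapping differences above the table's median of 6.05, Ctcf, flanking genes and the 3 brightest genes per marker list; others were named after their values were seen. Deviations of same-numbered arrays from their group means correlated at 0.23, -0.01 and -0.10 over all probe sets. Such a correlation cannot see a shift shared by a whole set, so whether the numbers pair the arrays is not settled. Array number limits precision. Promoter sequences of the members were not analysed here.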

Additional observations from a re-analysis of the deposited data

How the results depend on the processing

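The median difference over the members stayed between -2.00 and -1.16, and the members at least 2-fold lower between 62 and 87, over all planned settings; the 62 and the 87 each came from leaving out 1 array. Non-overlapping lower members numbered 48 to 83, but these counts are not alike. The 48 are of the 85 members left when dim probe sets were filtered out. The 83 came from leaving out 1 array, and groups separate more easily with fewer arrays. Of 25 named members 22 kept their direction in every setting, the others being 17284439, 17284503 and 17284614. Calls were less stable. Of all probe sets tested, 9 passed when dim ones were filtered out at the table's median, 11 at an adjusted p under 0.1 and 16 with 1 probe set per gene; among members 4, 5 and 1 passed, the last being Ighv1-53 of 5 members tested. With the replicate block 1 member passed, 17284420. Leaving out each array in turn gave 0 to 11 over all probe sets and 0 to 7 among members: 11 and 7 without WT replicate 3, 1 and 1 without Ctcf cKO replicate 2 or 3, and 0 and 0 without Ctcf cKO replicate 1, where limma had 2401 probe sets, 52 of them members, at an unadjusted p under 0.05. The causes were not tested. Precision is limited by 3 arrays a group. Members near the low or high end of the signal range may give compressed differences, and whether they did here was not tested.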
